A study of Homo sapiens with 17 samples.

Results

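Exon peaks are stretches of open chromatin that fall inside the exon of a transcript. In HepG2 cells given 5-azacytidine for 4 days, 3962 of 58372 ATAC-seq peaks carried an annotation beginning with the word exon, and these were the peaks described here. They were chosen by position alone, so no measured value decided which peaks were included, and all 3962 passed the filter on low counts. Of these, 1509 lay in a first exon and 2453 in a later one. Peaks annotated to 5′ or 3′ untranslated regions (UTR) form classes of their own and are not among them.

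HepG2 is a line grown from a human hepatocellular carcinoma. The labels give its tissue as liver, its cell type as hepatocyte and its genotype as wild type. Cells received 0, 2 or 10 µM 5-azacytidine, with fresh medium every day, and no other agent is given for any group. ATAC-seq libraries numbered 3 at 0 µM, 3 at 2 µM and 2 at 10 µM, and RNA-seq libraries numbered 3 at each dose. The series' design text calls the libraries of a dose biological replicates, but nothing names separate cultures, so a p-value here measures only the spread between these libraries. All cells come from 1 tumour line in bulk culture, in which fewer cells of a kind and a lower level per cell cannot be told apart.

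5-Azacytidine is a cytidine analogue that is built into RNA and DNA and traps the DNA methyltransferases, so that newly made DNA loses cytosine methylation. ATAC-seq uses a transposase that cuts and tags DNA where it is not covered by nucleosomes, and the number of reads in a peak measures how accessible that stretch is. First exons lie beside a transcription start and often inside a CpG island, which is usually free of methylation, whereas the later exons of transcribed genes are usually methylated. Open chromatin in a later exon can belong to an enhancer, to an internal start or to a neighbouring gene's regulatory DNA.

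The ATAC-seq libraries held between 2896671 and 7864321 reads in peaks, and 2 µM replicates 1 and 2 were the shallowest with 2907068 and 2896671. Promoter peaks took 41.3, 43.0 and 45.2% of those reads at 2 µM and 47.6 and 43.8% at 10 µM, against 44.8, 46.6 and 45.4% at 0 µM. The part of this uneven promoter share in the exon results was not tested, and counts that rest on the shallow libraries are given with and without them. RNA libraries held between 35553052 and 46430168 counts. All 12 hepatocyte marker genes were detected in RNA, and their summed level was 32800 to 60900 CPM at 0 µM, 18400 to 32400 at 2 µM and 1290 to 2180 at 10 µM. Summed markers of other cells also moved with dose. Endothelial markers had 17.1 to 31.9, 57.0 to 139 and 274 to 384 CPM at 0, 2 and 10 µM, with EMCN and CLDN5 at 0. Nearly all of the 10 µM sum was ESAM, with 270 to 374 CPM. ESAM had 9.6 to 14.7 CPM at 0 µM, beside up to 9.39 for VWF and 7.96 for TIE1, and 37.3 to 122 CPM at 2 µM. Leukocyte markers had 2350 to 3470, 1140 to 1710 and 72.0 to 101 CPM, with PTPRC and MS4A1 at 0. LYZ made up nearly all of it at 0 and 2 µM, and had 57.5 to 89 CPM at 10 µM. Fibroblast markers had 66.2 to 98.8, 128 to 387 and 185 to 235 CPM, and cholangiocyte markers 1020 to 1290, 1030 to 1350 and 516 to 1210 CPM. Members of both sums went different ways from 0 to 10 µM. TAGLN had 9.85 to 68.2 and then 174 to 220 CPM, but ACTA2 24 to 31.3 and then 9.62 to 14.8. KRT19 had 170 to 217 and then 398 to 1090 CPM, but SPP1 636 to 896 and then 15.1 to 26.2. PDGFRB and EPCAM were also lower at 10 µM. The part of these marker shifts in the exon results was not tested.

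Each exon peak spanned 501 bp, and each was labelled with the gene whose start was nearest, 3159 genes in all. Of these genes, 2560 had 1 exon peak and 599 had 2 or more. The gene of the label owned the annotated exon in 2441 peaks. In 466 peaks the exon belonged to another gene, and in 1055 to a transcript that the files do not pair with a gene. The word "labelled" below marks peaks of these last kinds. Among first-exon peaks, 869 lay in transcripts of several exons and 640 in transcripts of a single exon, of which 516 were transcripts without a gene. Later-exon peaks were spread up to exon 98, with 773 in exon 2 and 888 in a last exon. Distances from peak to nearest start ran from 101 to 491757 bp, with a median of 1086 bp for first exons and 2890 bp for later exons, because peaks from 1000 bp upstream to 100 bp downstream of a start were classed as promoters.

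Sequence was at hand where a RefSeq promoter window, which covers 250 bases before and 50 bases after a gene's start, fell inside an exon peak. Exon peaks met such a window in 82 cases, 59 of them in first exons. The windows below lie wholly inside exon peaks that changed at 10 µM, the 4 with the largest rise and the 2 with the largest fall among the windows that can be printed. They were chosen after the values were seen and are shown because the changed peak can be read base by base, with its CpG sites, the places where DNA methyltransferases act. Sequences are from RefSeq on GRCh38.p14, in the direction of the named RefSeq gene, and capitals mark CG and the run TGANTCA, where N is any base. TGANTCA is a looser form of the letter pattern known for the AP-1 transcription factors, TGACTCA or TGAGTCA. As a pattern it reads the same on both strands, and it shares no CG with the CpG count.
GRID1-AS2: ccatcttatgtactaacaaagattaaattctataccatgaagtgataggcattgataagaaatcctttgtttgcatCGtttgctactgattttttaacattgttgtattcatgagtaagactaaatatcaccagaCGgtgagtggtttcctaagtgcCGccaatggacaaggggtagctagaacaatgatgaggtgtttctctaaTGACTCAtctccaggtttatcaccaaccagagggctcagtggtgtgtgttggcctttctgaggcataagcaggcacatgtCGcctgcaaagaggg
NTSR1-AS1: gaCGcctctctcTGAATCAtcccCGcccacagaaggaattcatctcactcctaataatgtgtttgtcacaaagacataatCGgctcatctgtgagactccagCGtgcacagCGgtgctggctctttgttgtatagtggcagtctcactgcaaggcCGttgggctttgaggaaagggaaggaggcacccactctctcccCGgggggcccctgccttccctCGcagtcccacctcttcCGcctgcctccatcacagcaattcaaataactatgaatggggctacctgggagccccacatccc
PSMD6-AS1: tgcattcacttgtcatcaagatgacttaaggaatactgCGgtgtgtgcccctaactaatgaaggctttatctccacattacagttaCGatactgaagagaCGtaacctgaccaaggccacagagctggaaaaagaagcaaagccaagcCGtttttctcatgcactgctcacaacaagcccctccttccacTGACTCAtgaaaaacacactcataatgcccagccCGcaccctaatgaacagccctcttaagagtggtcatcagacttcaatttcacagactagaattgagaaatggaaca
LRIG1: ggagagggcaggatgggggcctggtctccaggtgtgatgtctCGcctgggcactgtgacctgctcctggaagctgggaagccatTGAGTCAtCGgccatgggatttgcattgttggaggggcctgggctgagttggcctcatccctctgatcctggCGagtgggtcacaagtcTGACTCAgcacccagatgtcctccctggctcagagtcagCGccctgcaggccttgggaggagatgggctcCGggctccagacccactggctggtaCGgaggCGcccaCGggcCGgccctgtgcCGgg
LOC107985554: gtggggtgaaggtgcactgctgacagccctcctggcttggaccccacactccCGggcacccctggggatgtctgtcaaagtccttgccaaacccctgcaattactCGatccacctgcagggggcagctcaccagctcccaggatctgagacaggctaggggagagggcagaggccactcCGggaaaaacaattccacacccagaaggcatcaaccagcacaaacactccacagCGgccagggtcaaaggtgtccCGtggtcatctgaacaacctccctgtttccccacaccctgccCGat
CEACAM16-AS1: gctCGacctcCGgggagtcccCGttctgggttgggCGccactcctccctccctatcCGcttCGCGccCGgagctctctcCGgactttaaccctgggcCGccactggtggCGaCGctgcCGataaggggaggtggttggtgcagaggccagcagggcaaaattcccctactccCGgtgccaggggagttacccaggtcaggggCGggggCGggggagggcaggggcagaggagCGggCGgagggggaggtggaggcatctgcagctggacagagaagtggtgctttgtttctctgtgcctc

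The first 4 windows sit in exon peaks that rose. GRID1-AS2's window (chr10:85643815-85644114, plus strand) lies in the peak chr10:85643778-85644278, which had 33.5 and 27.8 CPM at 10 µM, against 3.15, 2.18 and 3.41 CPM at 0 µM (log2 change 3.44 ± 0.23, adjusted p = 4.88e-14). It holds 4 CG and 1 TGANTCA. CPM are read counts scaled to a common total of reads in peaks, and each change is given with its standard error and an adjusted p from edgeR. The window of NTSR1-AS1 (chr20:62735310-62735609, minus strand), with 9 CG and 1 TGANTCA in the form TGAATCA, lies in the peak chr20:62735284-62735784. That peak had 53.4 and 52 CPM at 10 µM, against 5.58, 4.62 and 7.58 CPM at 0 µM (log2 change 3.17 ± 0.19, adjusted p = 5.16e-15). Both 10 µM libraries stood well above all 3 controls in these peaks. PSMD6-AS1's window (chr3:64011714-64012013, plus strand), with 5 CG and 1 TGANTCA, lies in exon 3 of PSMD6-AS2, in the peak chr3:64011654-64012154, which had 8.05 and 14.6 CPM at 10 µM, against 1.46, 0.816 and 2.46 CPM at 0 µM (log2 change 2.84 ± 0.36, adjusted p = 3.8e-08). LRIG1 encodes a membrane protein that restrains receptor tyrosine kinases. Its window (chr3:66405718-66406017, minus strand) holds 10 CG and 2 TGANTCA and lies in exon 1 of 12, in the peak chr3:66405603-66406103, which had 13.3 and 11.3 CPM at 10 µM, against 1.94, 1.63 and 2.46 CPM at 0 µM (log2 change 2.63 ± 0.29, adjusted p = 1.56e-09). LRIG1 RNA changed the other way, by −1.58 on the log2 scale (adjusted p = 4.5e-05).

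The last 2 windows sit in exon peaks that fell, and neither holds TGANTCA. LOC107985554's window (chr22:23290479-23290778, minus strand), with 6 CG, lies in exon 14 of 22 of BCR, the kinase gene joined to ABL1 in chronic myeloid leukaemia. Its peak chr22:23290374-23290874 had 5.9 and 7.83 CPM at 10 µM, against 16, 15.5 and 17.2 CPM at 0 µM (log2 change −1.27 ± 0.22, adjusted p = 6.69e-06). CEACAM16-AS1's window (chr19:44725134-44725433, minus strand), with 18 CG, lies in the peak chr19:44725088-44725588, labelled BCL3, which had 5.37 and 5.44 CPM at 10 µM, against 13.1, 13.9 and 15.2 CPM at 0 µM (log2 change −1.38 ± 0.26, adjusted p = 1.95e-05). Among the 57 exon peaks that shared at least 150 bp with a window, the windows under the 17 that rose at 10 µM had a median of 7 CG and 9 of them (52.9%) held TGANTCA. Of all 58372 peaks, 29.9% rose and 27.6% fell at 10 µM. Windows under the 12 that fell had a median of 9 CG and 1 (8.33%) held it, and windows under the 28 that did not pass the test had a median of 23.5 CG and 5 (17.9%) held it. Over all 34935 RefSeq windows the median was 14 CG and 7.72% held TGANTCA. These shares describe the letters in these windows and were not tested.

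At 2 µM most exon peaks that changed opened, and at 10 µM about as many closed as opened. At 2 µM against 0 µM, 743 exon peaks (18.8%) rose and 230 (5.81%) fell, where 15.5% of all peaks rose and 7.3% fell. The median log2 change was 0.10 in exon peaks and 0.02 over all peaks. At 10 µM against 0 µM, 1149 (29.0%) rose and 1210 (30.5%) fell, beside 29.9% and 27.6% of all peaks, with medians of −0.03 and 0.05. At 10 µM against 2 µM, 886 (22.4%) rose and 1319 (33.3%) fell, beside 27.5% and 27.6% of all peaks, with medians of −0.10 and 0.06. The 3 comparisons share libraries and are therefore given side by side. A peak counted as risen or fallen where edgeR's quasi-likelihood test, adjusted over all peaks by Benjamini and Hochberg, gave a p under 0.05.

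The 2 µM counts depended on single libraries. Risen peaks numbered 434 without 0 µM replicate 2 and 331 without both shallow 2 µM libraries, and fallen peaks numbered 109 without 2 µM replicate 3, 126 without both shallow libraries, and 364 and 363 without 10 µM replicates 1 and 2. Counts at 10 µM against 0 µM without both shallow libraries were 1065 and 1242.

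A smaller share of first-exon than of later-exon peaks closed. At 10 µM against 0 µM, 323 of 1509 first-exon peaks (21.4%) and 887 of 2453 later-exon peaks (36.2%) fell, while 420 (27.8%) and 729 (29.7%) rose. The median log2 change was 0.06 in first exons and −0.15 in later exons. Without 10 µM replicate 2 these were −0.03 and −0.26, and under total-count scaling −0.01 and −0.22. Leaving out each library in turn, or both shallow ones, kept the share that fell at 10 µM between 19.5 and 23.1% in first exons and between 30.5 and 39.2% in later ones. At 2 µM first exons rose in 194 cases (12.9%) and fell in 71 (4.71%), and later exons, which opened more often, rose in 549 (22.4%) and fell in 159 (6.48%). The share that rose was 4.44% in first exons and 10.8% in later exons without both shallow libraries, and 6.83% and 13.5% without 0 µM replicate 2. The share that fell at 2 µM was 2.05% and 3.87% without both shallow libraries, 2.52% and 2.89% without 2 µM replicate 3, 3.05% and 4.48% without 2 µM replicate 2, and 8.02 to 8.08% and 9.87% without either 10 µM library. Between 10 and 2 µM, 333 first-exon peaks (22.1%) rose and 332 (22%) fell, and 553 later-exon peaks (22.5%) rose and 987 (40.2%) fell.

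Exon number gave a graded picture. Exon 1 peaks fell in 21.4% of 1509 cases at 10 µM against 0 µM, exon 2 peaks in 27.2% of 773, and exons 3 to 5 in 35.3% of 850. Peaks in exons 6 to 10 fell in 46.4% of 388, those in exons 11 to 20 in 41.6% of 286, and those in exon 21 or beyond in 50% of 156. The share that rose was highest in exon 2, at 35.6%, and lowest in exon 21 and beyond, at 19.2%. Medians over the same 6 bands were 0.06, 0.14, −0.15, −0.41, −0.32 and −0.52. Last exons fell in 31.2% and rose in 34.3% of 888 cases, and inner exons fell in 39.0% and rose in 27.1% of 1565. These last exons leave out peaks annotated to 3′ UTRs, which fell in 39.9% and rose in 22.8% of 2514 cases. Single-exon transcripts, with 25.6% fallen and 31.2% risen, changed more often than the first exons of longer transcripts, with 18.3% and 25.3%.

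**Figure D1:**
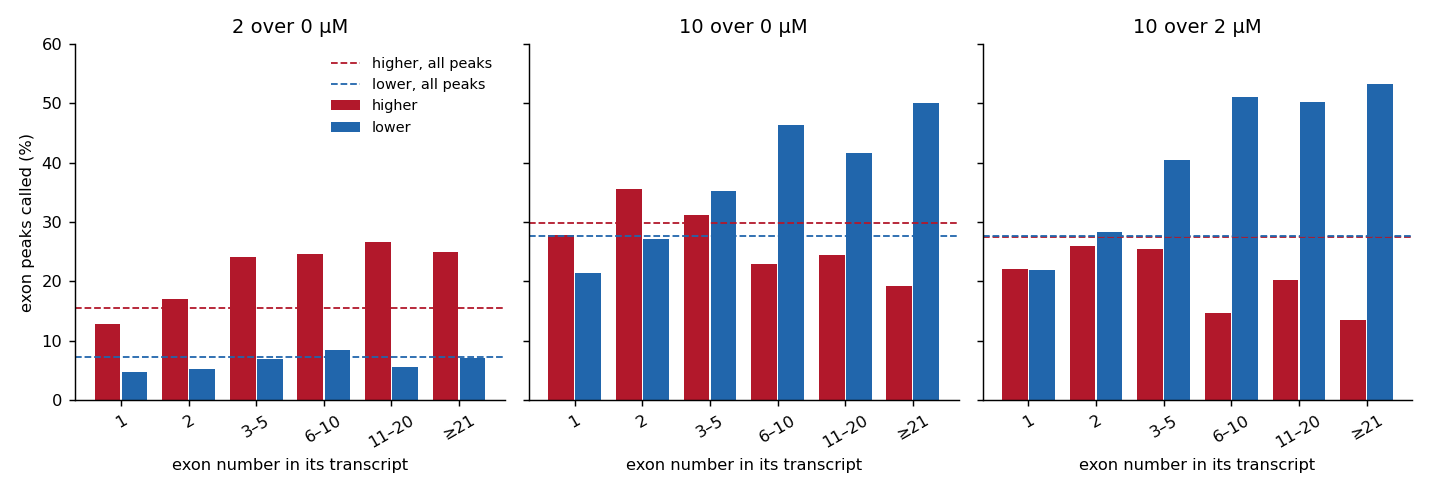
Share of exon peaks (%, y axis) called higher or lower in each band of exon number (x axis), with 1 panel for each pair of doses and dashed lines for the shares over all peaks. At 10 µM against 0 µM the share called lower was 21.4% in exon 1 and 50% in exon 21 and beyond.

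Shares also differed with distance to a start, so first and later exons were set side by side within bands of it. Between 101 and 500 bp from the nearest start, 9.81% of 581 first-exon peaks and 20.6% of 350 later-exon peaks fell at 10 µM against 0 µM, and 21.9% and 32.0% rose. In the same band 5.85% of first-exon and 16.3% of later-exon peaks rose at 2 µM. From 501 to 1000 bp the shares that rose were 9.87% in first and 20.7% in later exons at 2 µM, and 23% and 28.5% at 10 µM. Beyond 10000 bp they were 14.3% and 22.5% at 2 µM, and 34.9% and 33.5% at 10 µM. Between 1001 and 10000 bp the shares that rose were closer or turned round. At 2 µM they were 21.1% in first and 22.5% in later exons between 1001 and 3000 bp and 21.8% and 25.9% between 3001 and 10000 bp, and at 10 µM 31.4% and 29.8% and 32.9% and 26% in these bands. The share that fell at 10 µM was 26.5% in first and 37.8% in later exons between 1001 and 3000 bp, and 35.3% and 41.3% between 3001 and 10000 bp. For comparison, promoter peaks rose in 20.5% and fell in 14.9% of cases at 10 µM, 3′ UTR peaks in 22.8% and 39.9%, first introns in 34.4% and 31.4%, and later introns in 37.7% and 37.7%. At 2 µM promoter peaks rose in 7.04% and fell in 5.01%, 5′ UTR peaks in 11.9% and 2.51%, and 3′ UTR peaks in 26% and 4.73%. First introns rose in 18.1% and fell in 7.32%, and later introns in 24.6% and 9.9%, so opening at 2 µM was not particular to exons. None of these differences between peak classes was tested, since peaks of 1 library are not replicates.

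Values per library gave the tests that the design allows. Exon peaks took 6.001, 5.70 and 5.88% of the peak reads of the 0 µM libraries, 6.36, 6.23 and 6.11% of those of 2 µM, and 5.49 and 5.85% of those of 10 µM. The 3 libraries at 2 µM were the highest and did not overlap with either other dose. A slope over the dose order was −0.06 percentage points a step, with p = 0.671 in an exact two-sided permutation test over 560 arrangements of the 8 libraries. Since the values were not monotone over dose, the variance between doses was tested too, a choice made after seeing them, and gave an exact permutation p of 0.025 (0.025 after adjustment over 2 measures). That adjustment did not count the slopes tested before it. The order followed later exons. Their share averaged 3.45 ± 0.11% at 0 µM (SD, n = 3), 3.76 ± 0.14% at 2 µM (n = 3) and 3.22 ± 0.19% at 10 µM (n = 2). The first-exon share averaged 2.41 ± 0.04, 2.47 ± 0.03 and 2.45 ± 0.07% at the same doses, and these overlapped.

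The gap between first and later exons was measured in each library as the median log2 CPM of first-exon peaks minus that of later-exon peaks. The control libraries had 0.13, 0.21 and 0.15, those of 2 µM had 0.00, 0.07 and 0.13, and those of 10 µM had 0.36 and 0.26. Both 10 µM libraries were above all others, and 0 and 2 µM overlapped by a small margin. The slope was 0.06 a step with an exact two-sided permutation p of 0.257 (0.514 adjusted over 2 measures), and the variance between doses gave an exact permutation p of 0.0107 (0.0214 adjusted). Here too the adjustment of the later test did not count the slopes. No pair of doses could go below p = 0.1 in an exact test of 3 against 3 or 2 against 3 libraries. Among peaks within 500 bp of a start the control libraries had gaps of 0.077, 0.108 and 0.031, those of 2 µM had −0.054, 0.000 and 0.028, and those of 10 µM had 0.138 and 0.045. There 0 and 10 µM overlapped, and all 2 µM libraries were below both. The slope had an exact permutation p of 0.927 and the variance between doses one of 0.121.

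**Figure D2:**
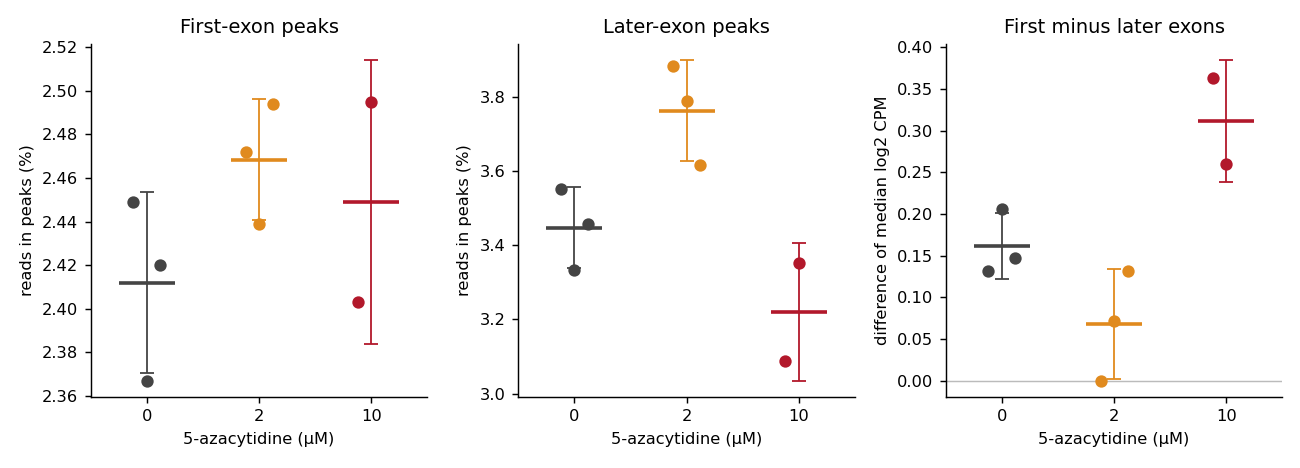
Values of each ATAC-seq library (points) by 5-azacytidine dose (µM, x axis), with the mean (line) and SD (bars), for the percent of peak reads in first-exon peaks, the percent in later-exon peaks and the first minus later difference in median log2 CPM. Later-exon shares are highest at 2 µM, with a mean of 3.76%, and the first minus later difference is highest at 10 µM, at 0.36 and 0.26.

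Many of the single peaks named from here on were picked for a large change that passed, with no overlap between libraries of the doses compared. For these the size of the change, the lack of overlap and in part the low level of the lower group follow from that choice. None of the 3 is added evidence. Among single peaks, the largest gains at 2 µM lay in later exons that were nearly closed in control cells. Exon 3 of COLGALT1, which adds galactose to collagen, held a peak (chr19:17560102-17560602) with 1.7, 0.408 and 0.758 CPM at 0 µM, 9.97, 18.2 and 13.8 CPM at 2 µM, and 14.2 and 11.3 CPM at 10 µM. All drug libraries were far above the controls, and the log2 change was 4.01 ± 0.35, adjusted p = 2.25e-09 at 2 µM and 3.90 ± 0.36, adjusted p = 5.16e-11 at 10 µM. COLGALT1 RNA did not pass the test at 2 µM, with −0.36, and fell at 10 µM, by 0.93. Exon 4 of MRTFB, a coactivator of serum response factor, had a peak (chr16:14148488-14148988) with 1.21, 2.18 and 2.84 CPM at 0 µM, 13.7, 12.4 and 13 CPM at 2 µM, and 17.7 and 25 CPM at 10 µM. It rose at both doses, by 2.59 and 3.28, and MRTFB RNA rose by 1.41 at 10 µM. In exon 6 of TACC3, a protein of the mitotic spindle, the peak chr4:1731254-1731754 had 1.21, 0.544 and 2.84 CPM at 0 µM, 9.97, 12.4 and 7.37 CPM at 2 µM, and 12.3 and 15.2 CPM at 10 µM. This peak too stood above the controls in every drug library (log2 change 2.68 ± 0.36, adjusted p = 1.94e-06 at 2 µM and 3.21 at 10 µM), while TACC3 RNA had 6.75, 10.2 and 7.4 CPM at 10 µM, against 77.3, 53.6 and 48.3 CPM at 0 µM and fell (−2.88 ± 0.26, adjusted p = 2.42e-06).

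Other peaks were high at 2 µM only among the 3 doses. Exon 22 of GAK, a kinase that helps uncoat clathrin vesicles, held the peak chr4:866160-866660 with 3.88, 2.31 and 3.03 CPM at 0 µM, 21, 21.7 and 15.5 CPM at 2 µM, and 2.82 and 3.7 CPM at 10 µM. The 2 µM libraries did not overlap with the other doses, and 0 and 10 µM overlapped. Its log2 change was 2.66 ± 0.25, adjusted p = 6.47e-09 at 2 µM and −2.56 ± 0.28, adjusted p = 3.79e-09 at 10 µM against 2 µM, and 0.10 at 10 µM against 0 µM, which did not pass. The peak in exon 5 of ACSF3, a mitochondrial malonyl-CoA synthetase (chr16:89116866-89117366), had the same order, with 3.64, 2.18 and 2.65 CPM at 0 µM, 16.8, 15.8 and 17.3 CPM at 2 µM, and 3.09 and 3.91 CPM at 10 µM. It changed by 2.62 ± 0.24, adjusted p = 7.44e-09 at 2 µM and by −2.28 ± 0.27, adjusted p = 1.46e-08 at 10 µM against 2 µM. Exon 2 of the noncoding gene GATD1-DT (chr11:783490-783990) had 2.67, 1.9 and 0.947 CPM at 0 µM, 14.8, 13.4 and 13.6 CPM at 2 µM, and 3.09 and 2.83 CPM at 10 µM. Again the 2 µM libraries alone were high (log2 change 2.94 ± 0.28, adjusted p = 1.13e-08). SHANK2, a scaffold protein of synapses, had a peak in exon 4 (chr11:71118829-71119329) that rose by 3.02 at 2 µM and by 1.31 at 10 µM, the last not without 0 µM replicate 2 (adjusted p = 0.105) or 10 µM replicate 2 (adjusted p = 0.0916). Its change at 10 µM against 2 µM was −1.71.

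**Figure D3:**
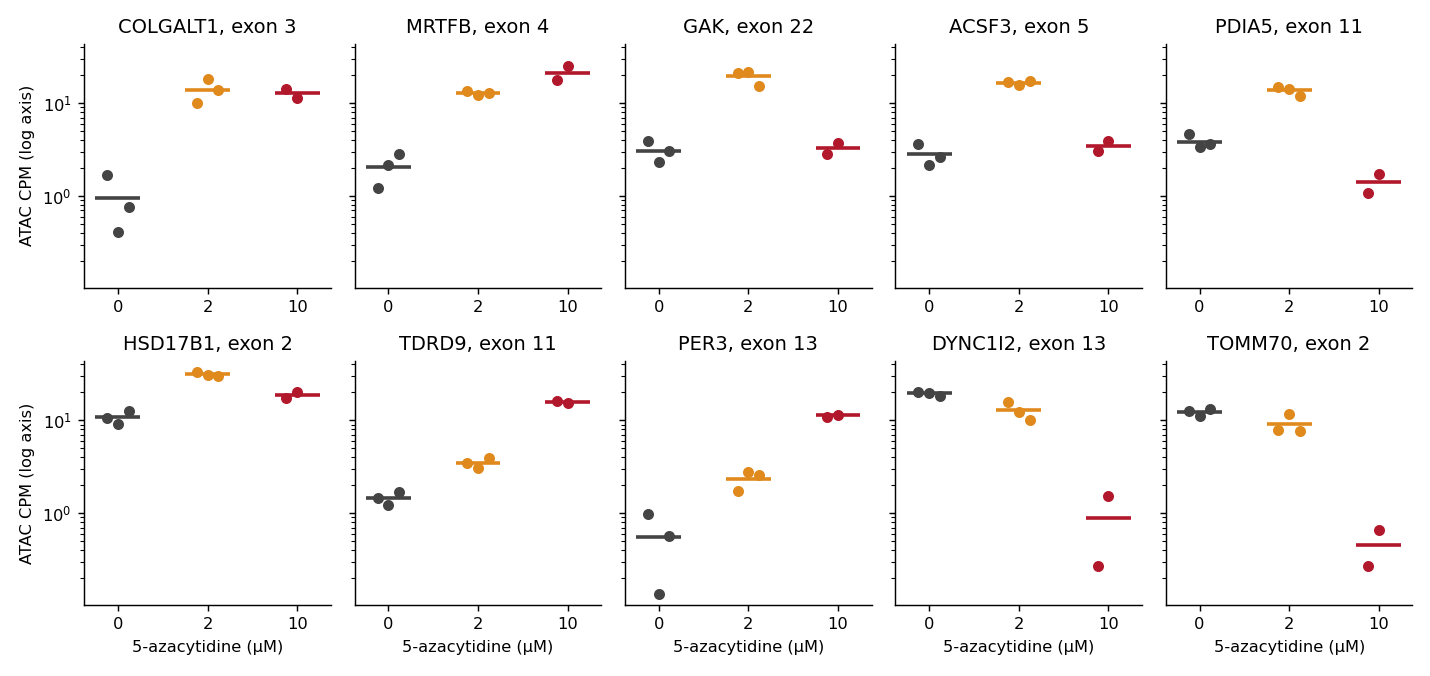
ATAC level (CPM, log axis) of 10 named exon peaks in every library (points) by 5-azacytidine dose (µM, x axis), with lines through the means. COLGALT1 and MRTFB are high at both drug doses, GAK, ACSF3 and PDIA5 at 2 µM alone, PER3 and TDRD9 most at 10 µM, and DYNC1I2 and TOMM70 are near 0 CPM at 10 µM.

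The largest gain of a first exon at 2 µM was smaller than that of a later exon. Exon 1 of a LARP4B transcript, which encodes an RNA-binding protein, held the peak chr10:819325-819825 with 3.88, 3.53 and 3.22 CPM at 0 µM, 14.4, 19.3 and 15.4 CPM at 2 µM, and 12.6 and 14.8 CPM at 10 µM. Every drug library was above every control (log2 change 2.19 ± 0.23, adjusted p = 2.68e-08 at 2 µM and 1.94 at 10 µM). A single-exon transcript labelled NPB, after a neuropeptide gene, held the peak chr17:81898194-81898694 with 12.9, 13.3 and 12.7 CPM at 0 µM, 49.5, 50.2 and 40.6 CPM at 2 µM, and 67.5 and 82.9 CPM at 10 µM. Its level was higher in each dose group than in the one below with no overlap, and its log2 change was 1.83 ± 0.15, adjusted p = 1.54e-09 at 2 µM.

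Losses at 2 µM were smaller than gains, the deepest of the peaks named here being −1.14. Exon 7 of the noncoding gene LINC00607 (chr2:215619217-215619717) had 38.6, 50.8 and 43.7 CPM at 0 µM, 20.6, 22.3 and 18.8 CPM at 2 µM, and 9.93 and 9.57 CPM at 10 µM. The doses did not overlap, and the log2 change was −1.14 ± 0.15, adjusted p = 1.46e-06 at 2 µM and −2.19 at 10 µM. A second peak in the same exon, named after its values were seen, rose by 0.78 and 1.03. Exon 1 of PRDM16, a transcriptional regulator of brown fat, held the peak chr1:3238038-3238538 with 29.6, 26.9 and 27.5 CPM at 0 µM, 15.1, 14.1 and 13.2 CPM at 2 µM, and 7.91 and 9.35 CPM at 10 µM. It fell by 1.00 on the log2 scale at 2 µM (adjusted p = 2.47e-05) and by 1.71 at 10 µM. A single-exon transcript labelled CPS1, the entry enzyme of the urea cycle, held the peak chr2:210548790-210549290 with 15.5, 17.4 and 14.2 CPM at 0 µM, 9.28, 6.88 and 6.41 CPM at 2 µM, and 6.44 and 5.22 CPM at 10 µM. The log2 change of this peak was −1.12 ± 0.21, adjusted p = 0.000179 at 2 µM and −1.41 at 10 µM. CPS1 RNA had 83, 69.9 and 77.8 CPM at 0 µM, 42.8, 47.4 and 47 CPM at 2 µM, and 22, 19.1 and 20.9 CPM at 10 µM, and it fell at 10 µM (−1.90 ± 0.17, adjusted p = 2.7e-06). At 2 µM CPS1 RNA passed the test with every library in the fit (log2 change −0.75 ± 0.17, adjusted p = 0.0235), but its adjusted p reached 0.121 without RNA-seq 2 µM replicate 1.

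The largest gains at 10 µM came from peaks that had few reads in control cells. PER3, a component of the circadian clock, had a peak in exon 13 (chr1:7810338-7810838) with 0.97, 0.136 and 0.568 CPM at 0 µM, 1.72, 2.75 and 2.59 CPM at 2 µM, and 11 and 11.5 CPM at 10 µM. Both 10 µM libraries stood above all others (log2 change 4.48 ± 0.40, adjusted p = 2.43e-11), and PER3 RNA, at −0.71, did not pass the test. In exon 3 of the noncoding gene LINC01654 the peak chr1:18072258-18072758 had 4.12, 2.18 and 2.65 CPM at 0 µM, 8.25, 9.97 and 6 CPM at 2 µM, and 53.7 and 62 CPM at 10 µM, with a log2 change of 4.34 ± 0.22, adjusted p = 2.77e-16. First exons gave changes of like size. A first exon labelled DTNA, a gene of the dystrophin-associated complex, held the peak chr18:34767580-34768080 with 1.21, 1.22 and 1.14 CPM at 0 µM, 2.75, 3.44 and 3.14 CPM at 2 µM, and 28.3 and 20.9 CPM at 10 µM (log2 change 4.35 ± 0.28, adjusted p = 2.02e-14), and DTNA RNA rose by 2.2. A single-exon transcript labelled CDK17, a cyclin-dependent kinase, held the peak chr12:96427176-96427676 with 4.85, 1.77 and 2.65 CPM at 0 µM, 6.19, 9.28 and 8.05 CPM at 2 µM, and 47.9 and 38.7 CPM at 10 µM. No library of another dose reached the 10 µM level (log2 change 3.93 ± 0.23, adjusted p = 7.23e-15), and CDK17 RNA rose by 1.53. DCAF5, a substrate receptor of a ubiquitin ligase, had peaks in exons 2 and 9 that rose by 4.18 and 3.94, with RNA that did not pass the test. The exon 9 peak was named after its value was seen.

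Among the deepest losses at 10 µM were peaks in inner exons. Exon 2 of TOMM70, an import receptor of the outer mitochondrial membrane, had a peak (chr3:100386594-100387094) with 12.6, 11.1 and 13.1 CPM at 0 µM, 7.9, 11.7 and 7.64 CPM at 2 µM, and 0.268 and 0.652 CPM at 10 µM. The 10 µM libraries were close to no signal (log2 change −4.79 ± 0.42, adjusted p = 1.34e-11), and the peak in exon 1 of the same gene, named after its value was seen, had −0.24 and did not pass. TOMM70 RNA also did not pass, with −0.04 ± 0.18, adjusted p = 0.871. Exon 13 of DYNC1I2, an intermediate chain of the dynein motor, held the peak chr2:171729257-171729757 with 20.4, 19.7 and 18.4 CPM at 0 µM, 15.8, 12.4 and 10.2 CPM at 2 µM, and 0.268 and 1.52 CPM at 10 µM. This peak was all but lost at 10 µM (log2 change −4.65 ± 0.36, adjusted p = 1.32e-12). DYNC1I2 RNA went the other way, with 280.0, 252 and 274 CPM at 10 µM, against 121, 133 and 146 CPM at 0 µM (log2 change 1.01 ± 0.18, adjusted p = 0.000578). Exon 5 of MRPS27, of the mitochondrial ribosome, and exon 7 of STARD7, a lipid transfer protein, fell by 4.10 and 4.04 on the log2 scale, with RNA changes of −0.74, which passed, and −0.17, which did not. Exon 1 of DGAT2, which makes triglycerides, held the peak chr11:75795741-75796241 with 17.9, 16.5 and 18 CPM at 0 µM, 12.4, 8.59 and 11.7 CPM at 2 µM, and 1.21 and 1.74 CPM at 10 µM. The log2 change was −3.60 ± 0.29, adjusted p = 3.74e-12, and DGAT2 RNA fell too (−1.53 ± 0.29, adjusted p = 0.000843).

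Several genes carried a row of exon peaks, which moved one way in some genes and both ways in others. Over all peaks 29.9% rose and 27.6% fell at 10 µM against 0 µM. At that dose FN1 had 2 risen and 2 fallen of 5, KCNQ1OT1 1 and 1 of 5, and LINC02937 3 and 1 of 5. ASXL1 had 4 risen and 0 fallen of 6, CABLES2 0 and 2 of 5, and CFAP74 and SLC2A1 0 and 3 of 5 each. The genes below are those with the most peaks, and others named after their values were seen. APOB, which encodes the large apolipoprotein of liver lipoproteins, had the most, with 12, of which 6 lay in its long exon 26 and 2 in a separate single-exon transcript. All 12 fell at 10 µM, also when any 1 library was left out. The log2 changes ran from −4.23 to −0.59. In the exon 26 peak chr2:21005604-21006104 the levels were 23.3, 15.4 and 19.7 CPM at 0 µM, 17.9, 10.3 and 9.82 CPM at 2 µM, and 0.805 and 1.3 CPM at 10 µM (log2 change at 10 µM −4.23 ± 0.35, adjusted p = 6.65e-12). The peaks nearer the start of APOB fell less. They gave −2.52 in exon 6, −1.23 in exon 5 and −0.59 in exon 3, against −3.16 in exon 29. In exon 3 (chr2:21042061-21042561) the peak still had 40.2 and 40.2 CPM at 10 µM, against 60.4, 58.2 and 63.4 CPM at 0 µM. Of the 12, 6 fell at 2 µM, and between none, without 2 µM replicate 3, and 8, without 0 µM replicate 2, did so when libraries were left out. The count was 3 without 0 µM replicate 1 or 3, 2 without 2 µM replicate 2 and 4 without both shallow libraries. APOB RNA had 13000, 11000 and 17700 CPM at 0 µM, 4220, 5940 and 8530 CPM at 2 µM, and 254, 336 and 348 CPM at 10 µM, and it fell at 10 µM (−5.47 ± 0.32, adjusted p = 1.36e-07). At 2 µM the RNA change was −1.16, whose adjusted p of 0.0269 became 0.124 without RNA-seq 2 µM replicate 1. Summed hepatocyte markers, of which APOB is 1, were also lower in RNA at 10 µM, as given above, and their part in these falls was not tested.

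NEAT1, the long noncoding RNA that builds nuclear paraspeckles, had 9 exon peaks, 2 of them in an exon of the neighbouring FRMD8. All 9 rose at 10 µM, by 1.09 to 2.08, and did so when any 1 library was left out. The peak chr11:65433922-65434422 had 3.64, 2.45 and 5.68 CPM at 0 µM, 10.7, 10.7 and 6.41 CPM at 2 µM, and 14.2 and 18.5 CPM at 10 µM, with a log2 change of 2.08 ± 0.28, adjusted p = 6.74e-08 at 10 µM. At chr11:65429696-65430196 the levels were 13.3, 11.4 and 16.9 CPM at 0 µM, 30.6, 27.5 and 24.3 CPM at 2 µM, and 23.7 and 35.9 CPM at 10 µM. In both peaks every drug library stood above every control. A further 7 peaks in the same NEAT1 exon were labelled MIR612, and 6 of them rose at 10 µM (4 to 7 when libraries were left out). At 2 µM, 8 of the 9 rose, but 3 without 0 µM replicate 2 and 1 without both shallow libraries. NEAT1 RNA varied widely between libraries, with 270.0, 361 and 1280 CPM at 0 µM, 160.0, 250 and 554 CPM at 2 µM, and 634, 691 and 506 CPM at 10 µM, and its change of −0.06 ± 0.52, adjusted p = 0.931 at 10 µM did not pass. LINC-PINT, a p53-induced noncoding RNA named here after its values were seen, had 5 exon peaks, 1 of them in an exon of LINC00513. All 5 rose at 10 µM, by 1.34 to 2.22, also when any 1 library was left out. Its peak chr7:130911081-130911581 had 9.94, 9.24 and 10.8 CPM at 0 µM, 24.4, 27.5 and 21.4 CPM at 2 µM, and 22.1 and 40.2 CPM at 10 µM, and LINC-PINT RNA rose at 10 µM (log2 change 2.38, adjusted p = 5.24e-05).

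The 7 peaks labelled SLC22A31, a member of a transporter family, all fell at 10 µM (6 without 10 µM replicate 1), although 5 of them lay in exons 6, 8, 9, 11 and 13 of CDH15, the muscle cadherin next to it. In exon 6 of SLC22A31 the peak chr16:89197829-89198329 had 96.5, 95.3 and 88.8 CPM at 0 µM, 75.9, 87.3 and 66.3 CPM at 2 µM, and 20.4 and 17 CPM at 10 µM. The 10 µM libraries were far below the rest (log2 change −2.31 ± 0.16, adjusted p = 1.88e-13). RNA of both genes fell, by 3.33 for SLC22A31 (adjusted p = 7.92e-06) and by 4.47 for CDH15 (adjusted p = 1.46e-05) on the log2 scale. CDH15 RNA was low throughout, with 8.38, 5.89 and 3.63 CPM at 0 µM, 6.58, 2.69 and 6.61 CPM at 2 µM, and 0.311, 0.346 and 0.142 CPM at 10 µM.

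COL9A3, a chain of cartilage collagen, had 7 labelled peaks, 1 of them in an OGFR exon, and they split by dose. At 2 µM, 3 rose and 1 fell, and at 10 µM, 5 fell (3 without 10 µM replicate 1). Exon 20 (chr20:62829151-62829651) had 8.97, 4.62 and 6.25 CPM at 0 µM, 18.2, 16.8 and 14.5 CPM at 2 µM, and 3.49 and 3.48 CPM at 10 µM, with a log2 change of 1.35 ± 0.22, adjusted p = 4.31e-05 at 2 µM and −2.21 ± 0.28, adjusted p = 5.88e-08 at 10 µM against 2 µM. Exon 3 (chr20:62818460-62818960) had 52.6, 52.6 and 43 CPM at 0 µM, 37.8, 37.8 and 34.6 CPM at 2 µM, and 22.9 and 20.7 CPM at 10 µM, an order that followed the dose. COL9A3 RNA had 361, 269 and 408 CPM at 0 µM, 327, 153 and 315 CPM at 2 µM, and 68.4, 71.9 and 81.5 CPM at 10 µM and fell at 10 µM (−2.23 ± 0.28, adjusted p = 3.25e-05). DHRS2, a short-chain dehydrogenase also named after its values were seen, had 6 exon peaks of which 5 rose at 2 µM and 6 fell at 10 µM against 2 µM, but none rose at 2 µM without both shallow libraries.

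**Figure D4:**
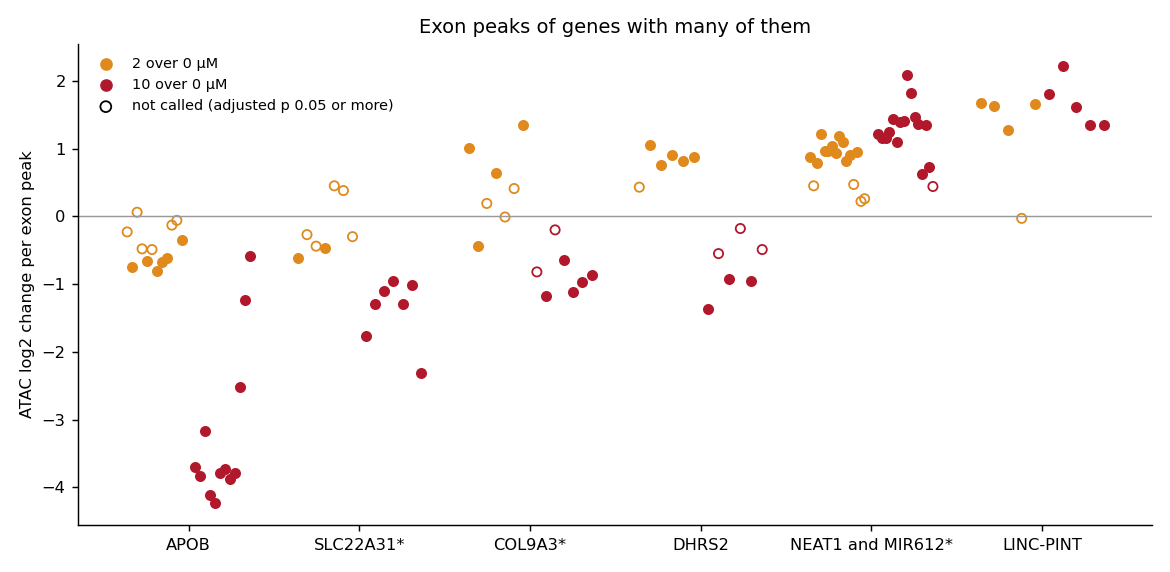
ATAC log2 change (y axis) of each exon peak of 6 genes or labels (x axis), at 2 over 0 µM (orange) and 10 over 0 µM (red), filled where the change passed the test. Asterisks mark labels under which some exons belong to another gene. LINC-PINT carries no asterisk, although a peak under that label lies in an exon of LINC00513. All 12 APOB peaks lie below 0 at 10 µM and all 9 NEAT1 peaks above it.

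Of the 30 exon peaks labelled with the 16 secreted liver proteins that had any, 21 (70%) fell and 2 (6.67%) rose at 10 µM. Over all peaks 27.6% fell and 29.9% rose. The median log2 change of the 30 was −1.14. The fallen count stayed at 19 to 21 when libraries were left out, and 12 of the 21 were APOB's. Exon peaks of ITIH3, a hyaluronan-binding plasma protein, fell by 2.06 in exon 2 and 1.01 in exon 7 on the log2 scale, and an exon 2 peak of AGT, angiotensinogen, fell by 1.63. The prothrombin gene F2 went the other way in exon 2, with 13.3 and 20 CPM at 10 µM, against 8.49, 6.12 and 8.52 CPM at 0 µM (log2 change 1.11 ± 0.22, adjusted p = 6.34e-05), while its RNA fell (−2.68). The coagulation factor gene F5 also rose in exon 3, by 0.67. ITIH3, AGT and F5 were named after their values were seen. At 2 µM, 7 of the 30 (23.3%) fell and 1 (3.33%) rose, beside 7.3% and 15.5% of all peaks. But none fell without 2 µM replicate 3, 2 without 2 µM replicate 2 and 4 without both shallow libraries or without 0 µM replicate 1 or 3. Of the 19 exon peaks labelled with 5 hepatocyte marker genes, APOB among them, 13 (68.4%) fell and 3 (15.8%) rose at 10 µM (median −2.52). APOB gave 12 of the 13, and of the 7 peaks of the other 4 genes 1 fell and 3 rose (median −0.06), with 2 risen under total-count or median-ratio scaling.

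Of 35 exon peaks labelled with 18 collagen, laminin and matrix genes, 20 (57.1%) fell and 4 (11.4%) rose at 10 µM. Over all peaks 27.6% fell and 29.9% rose. The median of the 35 was −0.82, and 16 to 24 fell when libraries were left out. Exon 19 of COL6A2 was 1 of the 4 that rose, with 11.7 and 15.7 CPM at 10 µM, against 3.64, 3.26 and 3.79 CPM at 0 µM (log2 change 1.92 ± 0.25, adjusted p = 6.17e-08). FN1, the fibronectin gene named after its values were seen, moved both ways within 1 gene. Its peaks in exons 22 and 11 fell by 1.18 and 1.20 on the log2 scale, and those in exons 41 and 5 rose by 1.12 and 0.98, the last not without 0 µM replicate 2. At 2 µM, 8 of the 35 (22.9%) rose and 4 (11.4%) fell, beside 15.5% and 7.3% of all peaks. Between 2, without both shallow libraries, and 9 rose when libraries were left out.

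Zinc finger genes, many of them repressors of retroelements, had 52 labelled exon peaks in 43 genes. Of these, 36 lay in exons of another gene or of a transcript without a gene. At 10 µM, 17 of the 52 (32.7%) rose and 12 (23.1%) fell (median 0.10), near the 29.9% and 27.6% of all peaks. Without 0 µM replicate 3, 11 rose. Under total-count or median-ratio scaling 13 rose and 13 fell. Exon 3 of ZNF365 rose by 2.38 and exon 5 of ZNF331 changed by −1.86, with ZNF331 RNA at −2.78. Homeobox and other developmental factors had 38 labelled peaks in 29 genes, 14 of them in exons that the labelled gene did not own. Of the 38, 10 rose (26.3%, and 6 peaks without 0 µM replicate 2) and 15 fell (39.5%). One peak in exon 3 of PAX8-AS1 rose by 1.74 as did PAX8-AS1 RNA, by 3.47 (adjusted p = 6.17e-05), while RNA of the labelled gene PAX8 changed by −2.58. Liver transcription factors had 15 labelled peaks in 10 genes, 7 of them in exons that the labelled gene did not own. Of the 15, 4 rose and 4 fell (26.7% each), shares near those of all peaks. Without 0 µM replicate 1 or 2, 10 µM replicate 2 or both shallow libraries, 2 rose. At CEBPB a labelled peak in exon 3 of CEBPB-AS1 had 12.3 and 14.1 CPM at 10 µM, against 54.6, 57.6 and 53.4 CPM at 0 µM (log2 change −2.07 ± 0.16, adjusted p = 1.66e-12), while CEBPB RNA rose by 0.67, a call lost under 4 of the alternative settings (adjusted p up to 0.117). CEBPB-AS1 RNA had a log2 change of −0.34 and did not pass (adjusted p = 0.612).

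Imprinted genes had 13 labelled peaks in 6 genes, 4 of them in exons that the labelled gene did not own. At 10 µM, 4 of the 13 (30.8%) rose and 1 (7.69%) fell, beside 29.9% and 27.6% of all peaks. Exon 2 of a transcript labelled GRB10, an adaptor of insulin signalling, had 3.4, 1.63 and 2.65 CPM at 0 µM, 4.81, 4.81 and 3.82 CPM at 2 µM, and 22.8 and 13.7 CPM at 10 µM. Both 10 µM libraries were the highest (log2 change 2.94 ± 0.28, adjusted p = 1.03e-10), and GRB10 RNA had 19, 32.2 and 40.4 CPM at 0 µM, 171, 161 and 55.4 CPM at 2 µM, and 706, 554 and 548 CPM at 10 µM and rose at 10 µM (4.30 ± 0.41, adjusted p = 4.31e-06). KCNQ1OT1, the antisense RNA of an imprinted cluster, had 1 peak that rose by 2.25 and 1 with a log2 change of −1.29. Among genes of DNA methylation and demethylation, GADD45A alone had exon peaks, and both rose at 10 µM, by 0.55 and 0.82, the first not without 0 µM replicate 2 or 3 or 10 µM replicate 1 (adjusted p up to 0.321). Of 5 peaks labelled with cancer-testis and germline genes, 2 (40%) rose and 3 (60%) fell at 10 µM. The mucin list had 2 peaks, both in MUC5B, and the one in exon 46 changed by −0.76, which passed. Clustered protocadherins had no exon peak, nor had BCL2A1 and SQOR, the genes that the series' title names (BFL-1 is the protein of BCL2A1). Marker genes of other cells had few. Cholangiocyte markers had 3, with 1 risen and 1 fallen at 10 µM. Endothelial markers had 2, with 1 risen and 1 fallen, leukocyte markers had 1 labelled peak, which did not pass, and fibroblast markers had none.

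RNA of the labelled genes could be tested for 3191 exon peaks of 2498 genes. At 2 µM against 0 µM 86 of these genes (3.44%) rose and 41 (1.64%) fell, beside 3.22% and 1.06% of the 18999 genes tested. At 10 µM against 0 µM 658 (26.3%) rose and 790 (31.6%) fell, beside 23% and 25.1%, and at 10 µM against 2 µM 530 (21.2%) rose and 669 (26.8%) fell, beside 16.8% and 21.6%. Scaling by total counts moved the median change of all genes to 0.15 at 2 µM and to 0.24 at 10 µM, and with it the split. Genes with exon peaks then numbered 130 risen and 18 fallen at 2 µM, 834 and 636 at 10 µM against 0 µM, and 610 and 602 at 10 µM against 2 µM. RNA libraries of the same number deviated together at 0 and 2 µM, and in a fit blocked on that number 88 rose and 68 fell at 2 µM. The 2 µM counts also rested on single RNA libraries. Leaving out a 0 µM library, replicate 1, 2 or 3, gave 46, 52 or 144 risen genes, and leaving out 2 µM replicate 1 or 2 gave 39 or 40. Fallen genes numbered 5, 7 or 103 when 2 µM replicate 1, 2 or 3 was left out, 17 or 71 for 0 µM replicate 1 or 3, and 27 or 22 for 10 µM replicate 1 or 3.

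Exon peaks and RNA of their labelled genes moved the same way more often than not where both passed, with many exceptions. Comparing 10 with 0 µM, 766 exon peaks passed in the direction of their gene's RNA and 366 in the opposite direction. Of 889 risen peaks with RNA, 339 (38.1%) had risen RNA and 191 (21.5%) had fallen RNA, beside 36.6% and 21.9% for all risen peaks. Of 950 fallen peaks, 427 (44.9%) had fallen RNA and 175 (18.4%) had risen RNA, beside 46.2% and 16.2% for all fallen peaks. These shares were near those of all peaks. Counts at 10 µM against 2 µM were 614 and 289, and at 2 µM against 0 µM 40 and 10. The 2 µM counts rested on single libraries. They became 11 and 3 without RNA-seq 2 µM replicate 1, 14 and 2 without replicate 2, and 65 and 21 without replicate 3. Without RNA-seq 0 µM replicate 1 they were 19 and 3, without replicate 3 of that dose 71 and 20, and without ATAC-seq 2 µM replicate 3 they were 24 and 4. Leaving out any other library gave 28 to 41 and 5 to 11. As a description across 3191 exon peaks, which share libraries and in part genes, Pearson's r between the ATAC and RNA log2 changes was 0.10 at 2 µM, 0.29 at 10 µM against 0 µM and 0.26 at 10 µM against 2 µM. Across 18067 promoter peaks it was 0.18, 0.33 and 0.31.

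**Figure D5:**
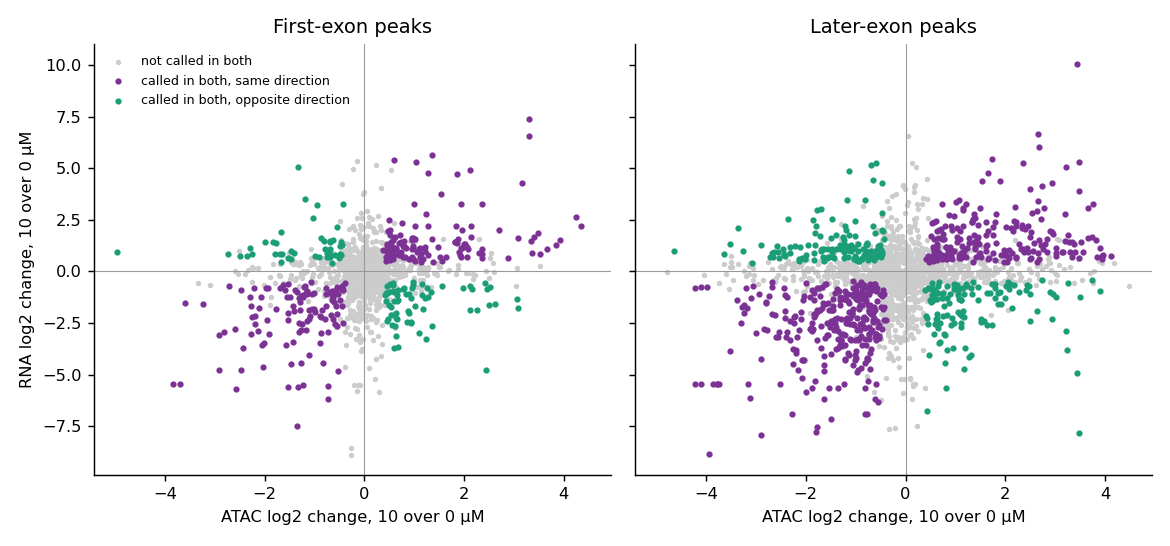
RNA log2 change of the labelled gene (y axis) against ATAC log2 change of each exon peak (x axis), 10 over 0 µM, for first exons and later exons. Purple points passed both tests in the same direction and green points in opposite directions. Over both panels 766 peaks are purple and 366 green, and the topmost later-exon point, TDRD9, has an RNA change fitted against control libraries at 0 counts.

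Named cases showed both kinds. HSD17B1, which makes estradiol, had a peak in exon 2 (chr17:42553227-42553727) with 10.7, 9.24 and 12.5 CPM at 0 µM, 33, 30.9 and 30 CPM at 2 µM, and 17.6 and 20.2 CPM at 10 µM. It was highest at 2 µM with no overlap (log2 change 1.54 ± 0.16, adjusted p = 4.95e-08). HSD17B1 RNA had 0.969, 1.57 and 0.947 CPM at 0 µM, 34.8, 22.7 and 16.2 CPM at 2 µM, and 1.87, 3.36 and 2.71 CPM at 10 µM, the same order, with a change of 4.4 ± 0.38, adjusted p = 6.88e-05 at 2 µM and −3.21 ± 0.35, adjusted p = 2e-05 at 10 µM against 2 µM. LUCAT1, a stress-induced noncoding RNA, had a peak in exon 5 (chr5:91302289-91302789) with 0.97, 1.36 and 1.52 CPM at 0 µM, 4.12, 5.16 and 3.96 CPM at 2 µM, and 12.1 and 18.3 CPM at 10 µM. Level followed dose (log2 change at 10 µM 3.48 ± 0.31, adjusted p = 2.18e-11), and so did LUCAT1 RNA, with 1.88, 3.24 and 4.15 CPM at 0 µM, 18.1, 26.8 and 9.74 CPM at 2 µM, and 139, 121 and 112 CPM at 10 µM and a change of 5.32 ± 0.39, adjusted p = 6.63e-07 at 10 µM. AOX1, an aldehyde oxidase of liver, had a peak in exon 8 (chr2:200603930-200604430) with 9.22, 12 and 12.9 CPM at 0 µM, 19.6, 22.7 and 19.9 CPM at 2 µM, and 30 and 29.8 CPM at 10 µM. Its peak rose by 0.84 and 1.38 at 2 and 10 µM, and AOX1 RNA, with 75.6, 72.5 and 95.5 CPM at 0 µM, 216, 229 and 169 CPM at 2 µM, and 218, 217 and 214 CPM at 10 µM, rose at both. TDRD9, a helicase of the germline pathway that silences transposons, had a peak in exon 11 (chr14:103994462-103994962) with 1.46, 1.22 and 1.7 CPM at 0 µM, 3.44, 3.09 and 3.96 CPM at 2 µM, and 16.1 and 15.4 CPM at 10 µM. The peak rose at 10 µM (3.44 ± 0.28, adjusted p = 4.8e-12). Its rise of 1.32 at 2 µM did not pass without 0 µM replicate 2 (adjusted p = 0.0555) or without 2 µM replicate 3 (adjusted p = 0.0686). TDRD9 RNA had 0 counts in all 0 µM libraries, 4.59, 7.23 and 3.01 CPM at 2 µM and 3.01, 2.69 and 3.82 CPM at 10 µM, at least 181-fold and 117-fold higher than a floor of 3 counts over the 0 µM group.

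In some genes peak and RNA passed in opposite directions. CALR, a calcium-binding chaperone, had a peak in exon 1 (chr19:12938759-12939259) with 13.1 and 10.2 CPM at 10 µM, against 3.4, 6.8 and 5.68 CPM at 0 µM (log2 change 1.10 ± 0.25, adjusted p = 0.000262). CALR RNA fell, with 146, 125 and 145 CPM at 10 µM, against 1390, 1070 and 798 CPM at 0 µM (−2.97 ± 0.24, adjusted p = 1.22e-06). Exon 4 of NOTUM, an extracellular inhibitor of Wnt proteins, rose by 0.79 and exon 6 of RRM2, a subunit of ribonucleotide reductase, by 0.77, with RNA changes of −4.41 and −3.01. Another NOTUM peak, in exon 10 and named after its value was seen, changed by −0.81 and passed. In exon 4 of PGS1, a mitochondrial lipid enzyme, the peak fell by 1.40 on the log2 scale and RNA rose by 1.79. The opposite calls of AGAP1 and PDIA5 depended on the setting. Exon 2 of AGAP1, a regulator of membrane traffic, held the peak chr2:235709079-235709579 with 11.9, 13.1 and 11.9 CPM at 0 µM, 32.3, 41.3 and 30.8 CPM at 2 µM, and 56.2 and 56.1 CPM at 10 µM. It rose by 1.47 and 2.18, while AGAP1 RNA fell at 10 µM, by 0.67 on the log2 scale, a call lost under total-count scaling (adjusted p = 0.0895) and without RNA-seq 10 µM replicate 1 or 3 (adjusted p = 0.0505 and 0.0572). PDIA5, a protein disulfide isomerase of the endoplasmic reticulum, had a peak in exon 11 (chr3:123130286-123130786) with 4.61, 3.4 and 3.6 CPM at 0 µM, 15.1, 14.1 and 12.1 CPM at 2 µM, and 1.07 and 1.74 CPM at 10 µM. The 2 µM libraries were the highest (log2 change 1.83 ± 0.24, adjusted p = 1.77e-06), and 10 µM was lower than 2 µM (−3.32 ± 0.33, adjusted p = 1.11e-09). Against 0 µM the change at 10 µM was −1.49, a call lost without 10 µM replicate 1 (adjusted p = 0.0639), and there it had the direction of the RNA. At 2 µM the RNA change was −0.91, opposite to the peak, with an adjusted p of 0.0457. That call was lost under total-count scaling (adjusted p = 0.0864) and when any RNA-seq library other than 0 µM replicate 2 or 2 µM replicate 3 was left out (adjusted p = 0.0639 to 0.176). PDIA5 RNA had 74.8, 50.7 and 89.1 CPM at 0 µM, 38.9, 29.2 and 46.2 CPM at 2 µM, and 13.4, 11.8 and 13.1 CPM at 10 µM, lower at each higher dose, and passed the test at 10 µM (−2.48 ± 0.25, adjusted p = 5.36e-06).

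Changed exon peaks were set beside the promoter peak of the same gene. This was counted where the labelled gene owned the exon and had a promoter peak. Of 505 such exon peaks that rose at 10 µM, the promoter peak rose in 130, fell in 36 and did not pass in 339 (67.1%). The 130 became 70 without 10 µM replicate 1, 70 without 0 µM replicate 3 and 82 without 0 µM replicate 1. Of 514 exon peaks that fell, the promoter peak fell in 139, rose in 76 and did not pass in 299 (58.2%), with 107 to 145 fallen when libraries were left out. The 76 became 43 without 10 µM replicate 1, 46 without 0 µM replicate 3 and 50 without 0 µM replicate 1. Where the exon peak itself did not pass, the promoter peak rose in 134 of 781, fell in 106 and did not pass in 541 (69.3%). That last share was close to the one beside risen exon peaks. At 2 µM, of 366 exon peaks that rose, the promoter peak rose in 31, fell in 29 and did not pass in 306 (83.6%), beside 88.5% of 1353 where the exon peak did not pass. Among those 1353 the promoter peak rose in 74 and fell in 81. Without both shallow libraries 182 exon peaks rose, with 6 promoter peaks risen and none fallen. Without 0 µM replicate 2 these were 227, 11 and 11, and without 10 µM replicate 1 the fallen promoter peaks numbered 59. A promoter peak that did not pass is not shown to be unchanged.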

How the data were processed

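The members and the gene lists were chosen with earlier results of these data known, and list entries caught by a name prefix alone were trimmed afterwards. Counts per ATAC-seq peak and counts per gene are raw whole numbers as deposited by the authors. Per the labels' protocols, RNA libraries were made with a stranded total RNA kit and ATAC-seq libraries with a Nextera kit. The submitters' processing notes name HISAT2 2.2.1, HTSeq 2.0.4, DiffBind 3.12.0, DESeq2 1.42.1 and build hg38, with no role given. The peak caller and the strand setting of the counting are not given in the sources used here. Without that setting a gene and its antisense partner may share reads.

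From these counts, edgeR 4.0.16 in R 4.3.3 (limma 3.58.1) fitted 1 quasi-likelihood model over the 8 ATAC-seq libraries and 1 over the 9 RNA-seq libraries, with TMM scaling, a filter on low counts and Benjamini-Hochberg adjustment over all 58372 peaks or 18999 genes tested. CPM use TMM-scaled library sizes, and log2 CPM per library a prior count of 2. Shares and medians per library were tested by exact permutation over libraries. DESeq2 1.42.0, other scalings, filters, a replicate block and the removal of single libraries were alternatives. Methods were tested on simulated data. Replicate numbers paired the RNA libraries of 0 and 2 µM, whose deviations from their dose means correlated at 0.194, 0.264 and 0.283 for the 3 numbers. ATAC-seq numbers did not, with 0.134, −0.0124 and −0.0539.

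Peaks were named by rule, from the 10 largest changes per direction and comparison where the higher dose group reached 5 CPM and no libraries overlapped, 5 such among first exons, up to 10 called with and 10 against the RNA, the 5 genes with most exon peaks, and 4 per gene list. Of the 169 peaks so named a part is given.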

Additional observations from a re-analysis of the deposited data

How the results depend on the processing

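Over 20 summary results and 333 alternative settings, 272 kept direction and side of the threshold, or a count within 1.5 times. Of the named peaks and genes, 7874 of 8335 alternatives kept their call, 461 lost it and 0 reversed. Both totals include the ATAC-seq fits with no count filter and with a stricter one. These kept all 58372 peaks, so no peak call could change in them. The causes of lost calls were not tested, except that fewer libraries or a fold threshold give fewer calls by construction.

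Exon peaks risen at 2 µM numbered 480 by DESeq2, 331 without both shallow 2 µM libraries (added after seeing the data) and 381 with a log2 change of at least 1. Fallen ones numbered 149, 126 and 22 under these, and 362 in a fit of 0 and 2 µM only. With that fold threshold 692 rose and 730 fell at 10 µM against 0 µM, and 414 and 776 against 2 µM. Genes with exon peaks risen in RNA at 2 µM numbered 130 under total-count scaling and 148 with no filter. Fallen ones numbered 18 and 137 under these, 98 by DESeq2, 68 with the replicate block and 73 with the replicate block on 0 and 2 µM only. The block changed no other count by over 1.5 times. Opposite ATAC and RNA calls at 2 µM numbered 6 with the exon's owner, 6 where owner and label agreed and 16 by DESeq2. Where owner and label agreed, same and opposite calls numbered 479 and 231 at 10 µM against 0 µM and 382 and 187 against 2 µM. The slope of the exon share, −0.0589, reversed to 0.0885 without 10 µM replicate 1. With all 8 libraries the exon-share slope had an exact permutation p of 0.671, and the first-later slope, 0.0621, one of 0.257. The variance between doses is another measure, chosen after seeing the values. Its exact permutation p was 0.025 for the exon share and 0.0107 for the first-later gap.

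Leaving out 1 library at a time gave 434 to 750 risen and 109 to 364 fallen exon peaks at 2 µM, 987 to 1152 and 1043 to 1310 at 10 µM, and 775 to 881 and 1032 to 1354 at 10 against 2 µM. In RNA it gave 39 to 144 and 5 to 103, 541 to 689 and 674 to 794, and 368 to 614 and 544 to 779. Same and opposite calls ran from 11 to 71 and 2 to 21, 676 to 771 and 292 to 379, and 502 to 683 and 202 to 332. The exon-share slope ran from −0.135 to 0.0885 and the first-later slope from 0.0135 to 0.0861. With 2 libraries at 10 µM and low counts in small peaks, smaller changes were not detectable at this depth.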
